A study of Solanum lycopersicum with 12 samples.

Results

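Dehydrins, the LEA protein LE25 and ASR (abscisic acid, stress and ripening) proteins are counted among the classic water-stress proteins of tomato, and their transcripts were followed here in plants sprayed with the biostimulant PSI-475. The genes were chosen by locus identifier: 4 dehydrins (TAS14, which is Solyc02g084850, with Solyc02g084840, Solyc04g082200 and Solyc01g109920), LE25 (Solyc10g078770) and 4 ASR loci (Solyc04g071580, Solyc04g071590, Solyc04g071610 and Solyc04g071620). Of these 9 loci, 7 were found among the 35976 loci of the expression table, and the ASR loci Solyc04g071580 and Solyc04g071620 were not analysed here. The gene names and family assignments are those of the list, since the table gives identifiers only. None of its identifiers matched the RefSeq gene table of assembly SLM_r2.1. That table holds genes named TAS14 on chromosome 2, LE25 on chromosome 10 and 4 ASR genes on chromosome 4, with 1 other gene listed between the first and the last ASR gene. Those ASR names were not paired with the identifiers used here.

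The groups were PSI-475 treated leaf, untreated leaf, PSI-475 treated root and untreated root, with 3 RNA-seq libraries each. All plants were wild-type Solanum lycopersicum watered with 50 mM NaCl (5.8 dS per m), so every group was under salinity and none was unstressed. PSI-475 was sprayed on the leaves at 2.5 mL per L when plants were 65 days old, 1 day before salinity, and again after 27 days of it, while untreated plants were sprayed with water. Young leaf and root were taken from plants 127 days old, 2 h after lights went off. The labels do not say whether replicates were separate plants, and the spread that each p-value is set against may be technical only. In whole-tissue RNA, fewer cells of a type and less RNA per cell cannot be told apart.

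Dehydrins are very hydrophilic proteins that accumulate as plant cells lose water, for example under drought, salt or cold, and they are thought to protect membranes and other proteins. TAS14 was described in tomato as a gene induced by salt and by the stress hormone abscisic acid. LE25 encodes a small late embryogenesis abundant (LEA) protein whose transcript is known from drying tomato leaves and from seeds. ASR proteins are small, hydrophilic and specific to plants, and the tomato ASR1 protein is known to bind zinc and DNA.

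The members ranged from rank 1 to rank 19958 of the 35976 loci within a library. Levels are given as FPKM (fragments scaled by locus length and by the library's assigned fragments), which is per length and so allows members to be set beside each other. In untreated root the dehydrin Solyc04g082200 was ranked 1 of all 35976 loci in each of the 3 libraries. It alone took from 1.07% to 1.10% of their fragments. In treated root it ranked between 26 and 40. TAS14 ranked between 60 and 74 in treated leaf and between 87 and 118 in untreated leaf. The ASR locus Solyc04g071610 ranked between 129 and 276 in all 12 libraries, whichever the tissue or treatment. At the other end, Solyc02g084840 ranked no higher than 18326 in treated root. Leaf libraries held 18190465 to 22993130 assigned fragments, and root libraries 17108347 to 20595008.

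**Figure D1:**
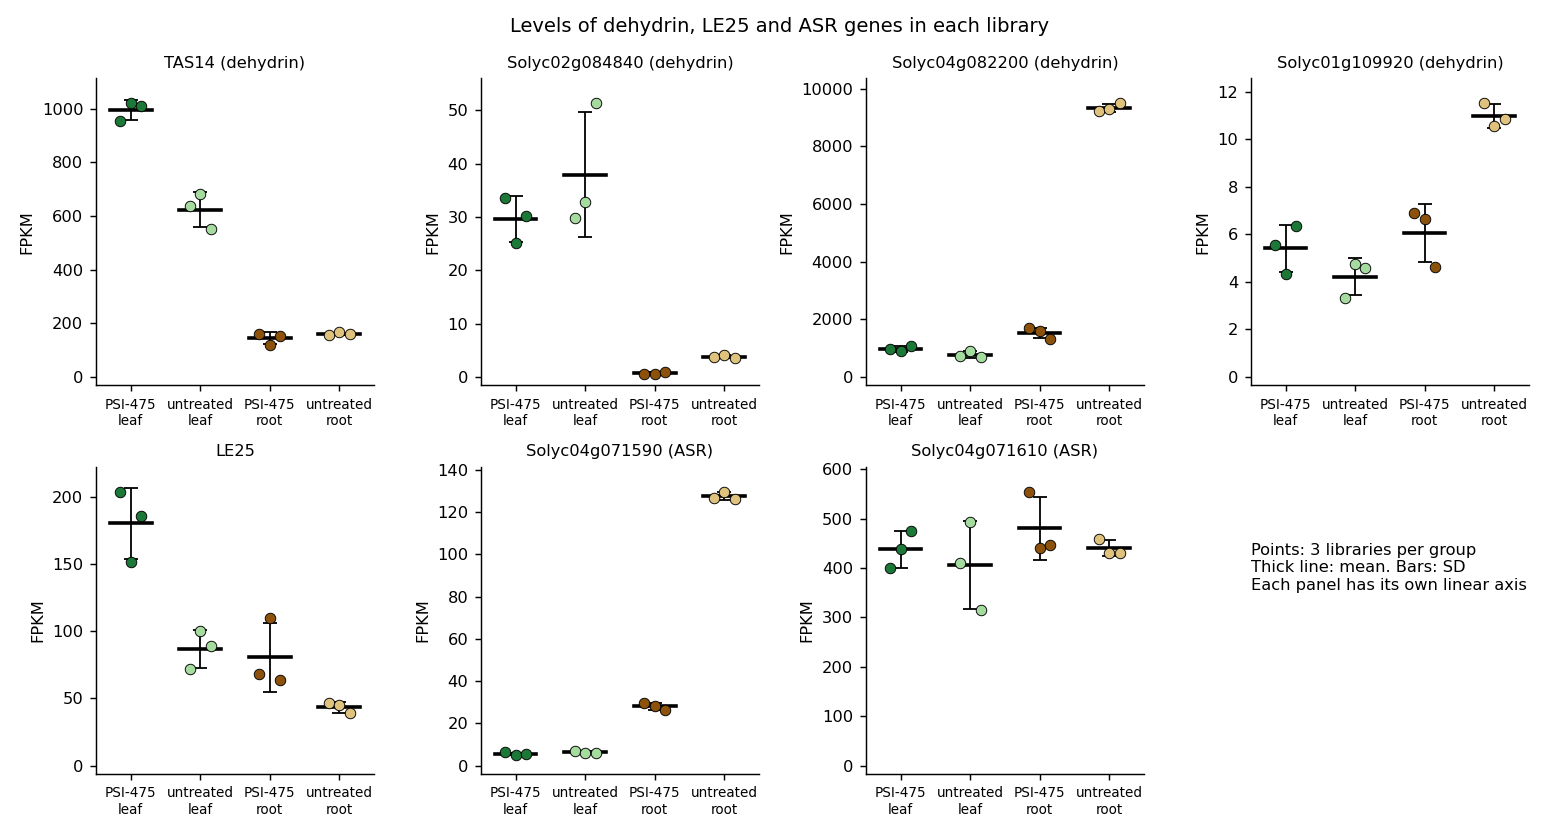
FPKM of the 7 measured members (vertical axes, linear and different for each panel) in PSI-475 treated leaf, untreated leaf, PSI-475 treated root and untreated root. Points are the 3 libraries of a group, thick lines the mean and thin bars the SD; Solyc04g082200 stood at 1323 to 1679.6 FPKM in treated root and at 9222 to 9508 in untreated root.

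In leaf, 2 of the 7 members rose with PSI-475, TAS14 and LE25, and none passed the test for a fall. The share of all 18405 leaf loci tested that rose was 13.5%, and the share that fell was 18.8% (limma on log2(FPKM + 1), Benjamini-Hochberg adjusted p under 0.05). At an unadjusted p under 0.05 the count of members that were lower was also 0, in limma and in limma-voom. The median log2 change was 0.30 for the 7 members and -0.09 for all loci tested. In root, 4 of the 7 members fell, namely the dehydrins Solyc04g082200, Solyc02g084840 and Solyc01g109920 and the ASR locus Solyc04g071590. LE25 rose, while TAS14 and Solyc04g071610 did not pass. Of the 18277 root loci tested, 24.5% fell and 52.0% rose. With median-of-ratios scaling 5 members fell, TAS14 among them, where 34.6% of all loci fell and 36.2% rose. In limma-voom with median-of-ratios library sizes 6 fell, TAS14 and Solyc04g071610 among them, where 36.5% of all loci fell and 35.3% rose. In limma-voom on unscaled library totals 4 fell, where 24.8% of all loci fell. The median log2 change in root was -0.78 for the members and 0.28 for all loci tested. All 7 passed the filter of a mean of 1 FPKM in both tissues, but Solyc02g084840 did so in root only through its untreated libraries. A member that passes in this way has to differ, so these counts are a description of the list, and of the other 6 members 3 fell in root. Treated and untreated libraries did not overlap for 2 members in leaf and for 5 in root, where 47.9% and 79.2% of all loci tested did not overlap.

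**Figure D2:**
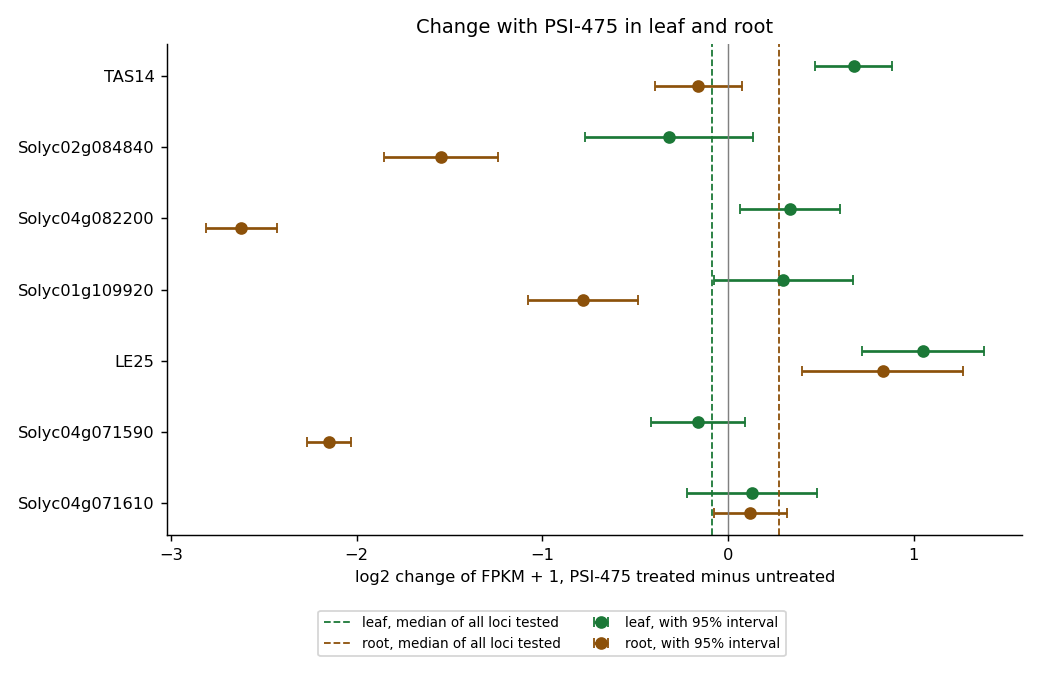
Log2 change in FPKM + 1 (horizontal axis, PSI-475 treated minus untreated) of the 7 members, each with its leaf value above its root value and with 95% intervals from limma (3 libraries per group). Dashed lines mark the median of all loci tested, -0.09 in leaf and 0.28 in root; LE25 lies right of both lines in both tissues, and Solyc04g082200 lies at -2.62 in root.

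TAS14, the dehydrin named for its induction by abscisic acid and salt, was a leaf-high gene that rose further with the spray. It stood at 953, 1020.4 and 1009 FPKM in treated leaf, against 638, 681 and 552 FPKM in untreated leaf. Every treated leaf library lay above every untreated one. The means were 994 ± 36.2 and 623 ± 65.7 FPKM (SD, n = 3 each), a 1.59-fold difference, which on the log2 scale was 0.68 (SE 0.09, limma adjusted p = 0.00106). With quantile normalization the change was smaller, at 0.40 (limma adjusted p = 0.0218). In root the values were 161, 119 and 152 FPKM with treatment, against 155, 166 and 159 FPKM without, and the groups overlapped. The log2 change of -0.16 (SE 0.10, limma adjusted p = 0.181) did not pass as deposited. It did pass with median-of-ratios scaling, at -0.45 (limma adjusted p = 0.00435), and in limma-voom, at -0.47 (limma-voom adjusted p = 3.75e-05), both of which move the centre of all root loci (given further on). With limma-voom on unscaled library totals it was -0.16 and did not pass (limma-voom adjusted p = 0.0766).

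Solyc04g082200 was the most abundant dehydrin in root and had the largest change of the list. It stood at 1679.6, 1575 and 1323 FPKM in treated root, against 9222, 9306 and 9508 FPKM in untreated root. The groups were far apart, and the untreated root libraries lay close to each other. The means of 1526 ± 183 and 9345 ± 147 FPKM (SD, n = 3 each) made it 6.12-fold lower with PSI-475, which on the log2 scale was -2.62 (SE 0.08, limma adjusted p = 4.29e-08). Only 1.78% of the root loci tested had a larger absolute change. It was read from 31243 to 34691 fragments per treated root library, so counting error was small beside the difference.

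In leaf, Solyc04g082200 was at 959, 885 and 1070.1 FPKM with PSI-475, against 728, 901 and 689 FPKM without. The lowest treated library fell below the highest untreated one. The log2 change of 0.34 (SE 0.12) missed the threshold, with a limma adjusted p of 0.0592. Without untreated leaf replicate 2, the highest of its group, the change was 0.45 and passed (limma adjusted p = 0.0182). It also passed with a filter at 5 FPKM, with median-of-ratios scaling, in both limma-voom fits and with all 12 libraries in the fit, while quantile normalization left a change of 0.03.

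Solyc02g084840, a dehydrin whose identifier lies next to that of TAS14, was also a leaf gene but did not follow TAS14. In leaf it stood at 33.6, 25.1 and 30.2 FPKM with PSI-475, against 29.8, 32.7 and 51.4 FPKM without, and the groups overlapped. Its leaf log2 change was -0.32 (SE 0.20, limma adjusted p = 0.253). The third untreated leaf library was the high one, and without it the change was -0.08. In root it was near the limit of detection with treatment, at 0.610, 0.444 and 0.898 FPKM, against 3.75, 4.13 and 3.51 FPKM in untreated root. These values rest on 10, 7 and 17 fragments in the treated libraries, with exact 95% Poisson intervals of 4.80 to 18.4, 2.81 to 14.4 and 9.90 to 27.2 fragments. The untreated root libraries had 59, 70 and 60 fragments. The mean was 5.84-fold lower in treated root, while the fitted log2 change was -1.55, because adding 1 FPKM shrinks changes of low loci. No p is given for this root change, since the locus passed the filter only through the untreated libraries. With 0.1 added in place of 1 the log2 change was -2.42, and in limma-voom it was -2.84.

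Solyc01g109920, a dehydrin that never exceeded 11.5 FPKM, fell in root. In root it stood at 6.88, 6.63 and 4.63 FPKM with PSI-475, against 11.5, 10.5 and 10.8 FPKM without. The groups did not overlap, and the mean was 1.81-fold lower with treatment (log2 change -0.78, SE 0.13, limma adjusted p = 0.000637). In limma-voom the change was -1.21. In leaf it stood at 5.55, 4.35 and 6.33 FPKM with treatment, against 3.32, 4.74 and 4.56 FPKM without, and the log2 change of 0.30 did not pass (limma adjusted p = 0.192).

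LE25, the LEA gene, was the one member that rose in both tissues. In leaf it stood at 204, 152 and 185 FPKM with PSI-475, against 71.5, 99.7 and 89.0 FPKM without, and every treated library was the higher. The mean was 2.08-fold higher in treated leaf (log2 change 1.05, SE 0.14, limma adjusted p = 0.0012), and 3.38% of leaf loci tested had a larger absolute change. In root it stood at 67.9, 110.0 and 63.3 FPKM with PSI-475, against 46.4, 45.0 and 38.8 FPKM without. The second treated root library was well above the other 2, but all 3 exceeded the untreated ones. The mean was 1.85-fold higher in treated root (log2 change 0.83, SE 0.19, limma adjusted p = 0.00368), and 30.2% of root loci tested had a larger absolute change. Without the second treated library the root change was 0.59 (limma adjusted p = 0.000539). With median-of-ratios scaling it was 0.55 and in limma-voom 0.52, both past the threshold.

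Of the 2 measured ASR loci, Solyc04g071590 fell in root and Solyc04g071610 did not pass in either tissue. Solyc04g071590 stood at 29.7, 28.0 and 26.4 FPKM in treated root, against 127, 130 and 126 FPKM in untreated root. Both groups were tight and far apart. The mean was 4.55-fold lower with PSI-475 (log2 change -2.15, SE 0.05, limma adjusted p = 1.15e-08). In leaf it was low in every library, at 6.21, 5.06 and 5.29 FPKM with treatment and 6.74, 6.01 and 6.06 FPKM without, and the log2 change was -0.16 (limma adjusted p = 0.297).

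Solyc04g071610 was the more abundant of the 2 measured ASR loci, and its spray differences did not pass the test as deposited. In leaf it stood at 401, 437 and 476 FPKM with PSI-475, against 409, 492 and 314 FPKM without. In root it stood at 554, 440.1 and 447 FPKM with PSI-475, against 458, 430.0 and 430.2 FPKM without. The log2 changes were 0.13 in leaf (95% interval -0.22 to 0.48) and 0.12 in root (95% interval -0.08 to 0.32). Their direction depended on the processing. The leaf change was -0.04 without untreated leaf replicate 3. The root change was -0.17 with median-of-ratios scaling and -0.19 in limma-voom, where it passed the threshold (limma-voom adjusted p = 0.0123), but 0.12 in limma-voom on unscaled library totals. Near-identical copies within the ASR and dehydrin families could share reads, and how such reads were counted is not given in the sources used here.

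The falls in root stood beside a wider shift between tissue-typical loci. In untreated root, 1620 loci were higher than in untreated leaf by at least 2 on the log2(FPKM + 1) scale. All of them also passed the limma test of that comparison (adjusted p under 0.05), and they include Solyc04g082200 and Solyc04g071590. Of these 1620 loci, 1141 fell and 351 rose in root, with a median log2 change of -1.12. Within this set 227 loci fell more steeply than Solyc04g082200 and 363 more steeply than Solyc04g071590. Of the 2237 leaf-high loci, chosen by the same limit and test in the other direction, 1381 passed the root filter. Their median log2 change in root was 0.77. A locus low in untreated root passes that filter more readily if it rises, so the filter itself favours a rise in this set. Solyc02g084840 belongs to the leaf-high loci and fell, but it passed the root filter only through its untreated libraries, so its fall is no contrast to them. The sets and the root change share the untreated libraries. The part of this shift in the members' changes was not tested. Scaling also moved the centre of the root comparison: the median of all loci was 0.28 as deposited, 0.03 with median-of-ratios scaling and 0.12 with quantile normalization. Relative to the median, Solyc04g082200 changed by -2.90 as deposited, by -2.94 with median-of-ratios scaling and by -2.44 with quantile normalization, and LE25 by 0.56, 0.52 and 0.67.

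The effect of the spray was lower in root than in leaf for 5 of the 7 members and higher for none, against 20.8% and 46.6% of the 19324 loci in the interaction test. At an unadjusted p under 0.05 the count of members with a higher effect in root was also 0, in limma and in limma-voom. All 4 dehydrins were among the 5, counting Solyc02g084840, whose root part rests on 7 to 17 fragments per treated library. The difference between the root and leaf log2 changes was -2.96 for Solyc04g082200 (SE 0.16, limma adjusted p = 1.12e-08), and -1.99 for Solyc04g071590 (SE 0.11, limma adjusted p = 1.45e-08). It was -1.08 for Solyc01g109920 (limma adjusted p = 0.000874) and -0.84 for TAS14 (limma adjusted p = 0.000259). For Solyc02g084840 it was -1.23, and no p is given, as for the root change on which it rests. In limma-voom the differences were -2.61 for Solyc02g084840, again without a p, and -1.67 for Solyc01g109920, which was still called. The TAS14 difference was -0.52 with quantile normalization (limma adjusted p = 0.0129). For LE25 the difference was -0.22, with a 95% interval of -0.80 to 0.37, and for Solyc04g071610 it was -0.01, with an interval of -0.44 to 0.42. Neither passed as deposited. Both passed in limma-voom with median-of-ratios library sizes, where 28.3% of all loci were lower and 26.5% higher, at -0.64 for LE25 (limma-voom adjusted p = 0.0462) and -0.43 for Solyc04g071610 (limma-voom adjusted p = 0.0361), but not on unscaled library totals. The median of all loci in this comparison was 0.33 as deposited, 0.01 with median-of-ratios scaling and -0.01 in that limma-voom fit.

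The members were divided between the tissues. Without the spray, Solyc04g071590 was 20.3-fold higher in root than in leaf, Solyc04g082200 12.1-fold and Solyc01g109920 2.61-fold. In the same comparison Solyc02g084840 was 9.99-fold, TAS14 3.90-fold and LE25 2.00-fold higher in leaf than in root. These 6 passed the test (limma adjusted p from 7.75e-14 to 0.000403), as did 81.2% of all loci. Solyc04g071610 did not, at 439 ± 16.2 FPKM in untreated root and 405 ± 89.1 FPKM in untreated leaf (SD, n = 3 each; limma adjusted p = 0.365). It passed as higher in untreated root with median-of-ratios scaling, at 0.36 (limma adjusted p = 0.025), in limma-voom with median-of-ratios library sizes, at 0.39 (limma-voom adjusted p = 0.00583), and without untreated leaf replicate 2, at 0.29 (limma adjusted p = 0.0489). With quantile normalization its sign was the opposite, at -0.10. With the spray, the gap between root and leaf was smaller for the 3 root-high members and wider for TAS14, by the interaction tests given above. For Solyc02g084840 the ratio of means was also wider, but no p is given for it. In treated plants Solyc04g082200 was 1.57-fold higher in root than in leaf (limma adjusted p = 0.000149) and Solyc04g071590 5.08-fold. Solyc01g109920 no longer passed, at 6.05 ± 1.23 FPKM in treated root and 5.41 ± 0.998 FPKM in treated leaf (SD, n = 3 each; limma adjusted p = 0.445). TAS14 was 6.90-fold higher in treated leaf than in treated root, LE25 2.24-fold and Solyc02g084840 45.5-fold, the last from the few root fragments given above. Among treated tissues 78.3% of all loci passed. Both comparisons use the same libraries as the spray comparisons.

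The order of levels over the 4 groups differed between members. TAS14 was highest in treated leaf, then untreated leaf, with both root groups lowest. Its root groups were not separated from each other as deposited, but were with median-of-ratios scaling and in limma-voom with median-of-ratios library sizes. LE25 had the same order at the top, and its untreated leaf and treated root means, 86.7 ± 14.2 and 80.4 ± 25.8 FPKM (SD, n = 3 each), lay within each other's spread. Solyc04g082200 and Solyc04g071590 were highest in untreated root and next in treated root, with the leaf groups below. The leaf groups were not separated from each other in the 6-library limma fit as deposited. For Solyc04g082200 they were separated under some of the other settings given above. Solyc01g109920 was highest in untreated root, and its other 3 groups lay between 3.32 and 6.88 FPKM.

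The make-up of the dehydrin transcripts shows how far 1 gene set the total. In treated root the 4 dehydrins summed to 1848, 1701 and 1481 FPKM, against 9392, 9486 and 9681 FPKM in untreated root. Solyc04g082200 was 89.4% to 92.6% of that sum in treated root and 98.1% to 98.2% in untreated root. In leaf the sums were 1951, 1935 and 2116 FPKM with PSI-475, against 1399, 1619 and 1296 FPKM without. There Solyc04g082200 and TAS14 were nearly even, with TAS14 at 47.7% to 52.7% of the sum in treated leaf and 42.1% to 45.6% in untreated leaf. All 7 members together took 0.204% to 0.254% of the fragments in treated root, against 1.12% to 1.16% in untreated root. In treated leaf they took 0.230% to 0.255%, against 0.159% to 0.206% in untreated leaf.

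**Figure D3:**
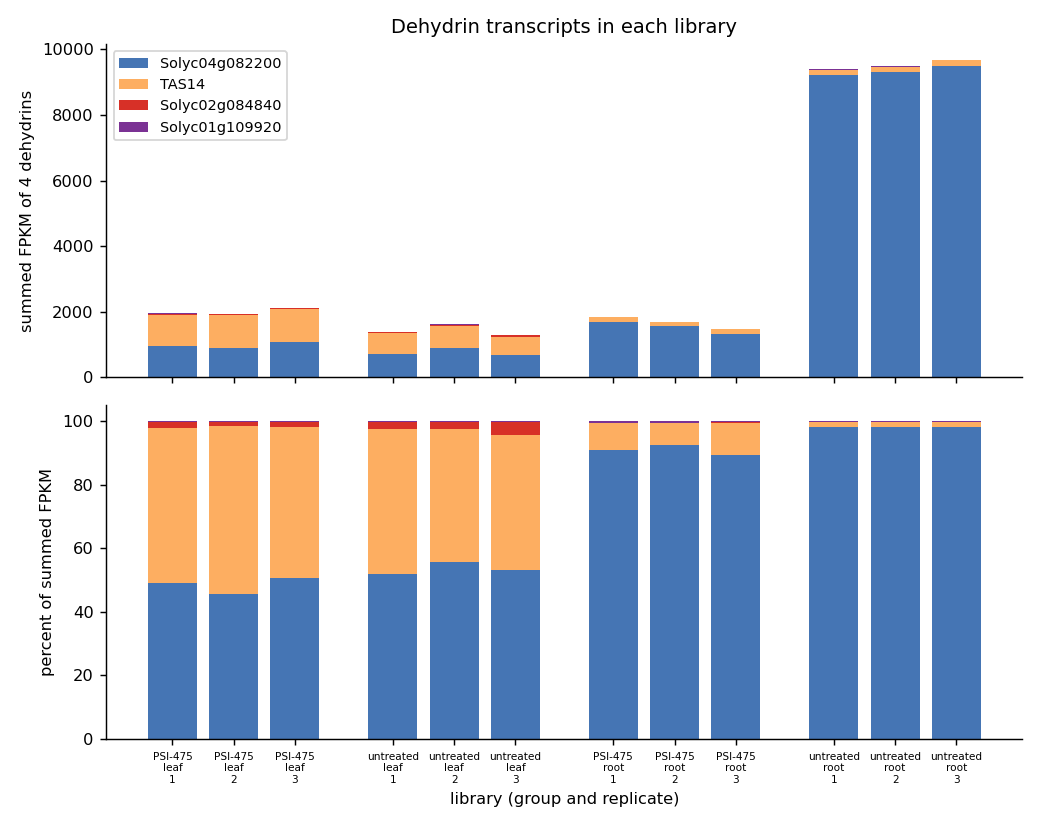
Summed FPKM of the 4 dehydrins (upper panel, vertical axis) and the percent of that sum from each (lower panel) in each of the 12 libraries, named by group and replicate. The untreated root bars reach 9392 to 9681 FPKM and are almost all Solyc04g082200, while the leaf bars are shared between Solyc04g082200 and TAS14.

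Ratios between members of the same library are the same whatever scaling factor a library is given. The ratio of Solyc04g082200 to TAS14 was 10.4, 13.2 and 8.71 in treated root, against 59.4, 56.2 and 60.0 in untreated root. In leaf it was 1.01, 0.868 and 1.06 with PSI-475, against 1.14, 1.32 and 1.25 without. The 2 dehydrins changed unequally in root, and the 2 groups of ratios were far apart. The ratio of TAS14 to Solyc02g084840 was 264, 268 and 169 in treated root, against 41.3, 40.1 and 45.1 in untreated root. The treated root ratios rest on 10, 7 and 17 fragments of Solyc02g084840, which passed the root filter only through its untreated libraries. In leaf the ratio of TAS14 to it was 28.3, 40.7 and 33.4 with PSI-475, against 21.4, 20.8 and 10.7 without. Between the ASR loci, the ratio of Solyc04g071610 to Solyc04g071590 was 18.6, 15.7 and 16.9 in treated root, against 3.61, 3.32 and 3.41 in untreated root. In leaf that ratio ran from 64.5 to 90.0 with PSI-475 and from 51.8 to 81.9 without, and the groups overlapped.

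**Figure D4:**
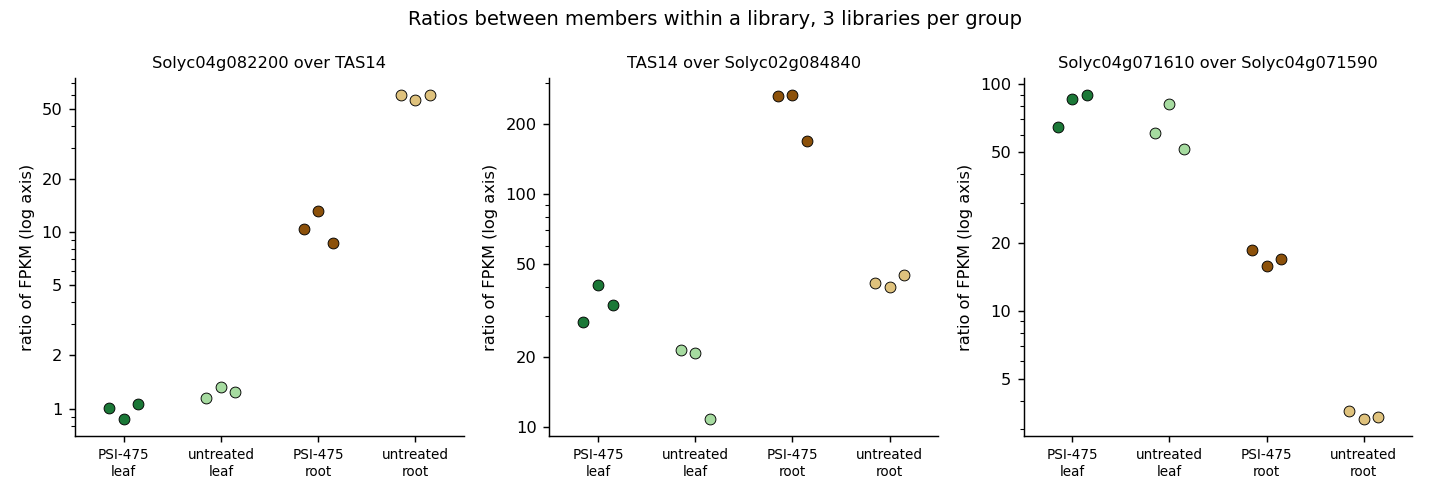
Ratios of FPKM between pairs of members within each library (vertical axes, logarithmic), with 3 points for each of PSI-475 treated leaf, untreated leaf, PSI-475 treated root and untreated root. Solyc04g082200 over TAS14 lies at 8.71 to 13.2 in treated root and 56.2 to 60.0 in untreated root.

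Loci with neighbouring identifiers did not all follow the members. Over the windows of identifiers around the members 55 other loci were listed. In root 42 of these were tested, of which 16 rose and 13 fell, and in leaf 34 were tested, of which 6 rose and 6 fell. Of all loci tested, 52.0% rose and 24.5% fell in root, and 13.5% rose and 18.8% fell in leaf. The window counts are a description and were not tested against these shares. Around TAS14 and Solyc02g084840, neither of which rose in root, 6 of 8 tested loci were higher and 1 lower. Within the ASR window 6 of 15 tested loci were lower in root and 2 higher. Among these, and chosen after their values were seen, Solyc04g071600 stood at 31.7, 25.9 and 28.9 FPKM in treated root, against 230.5, 243 and 234 FPKM in untreated root. The groups did not overlap (log2 change -2.99, limma adjusted p = 1.03e-08). Solyc04g071615, whose identifier lies between those of Solyc04g071610 and Solyc04g071620 and which was also chosen after its values were seen, exceeded every member in leaf, at 2627, 2332 and 2610.4 FPKM with PSI-475, against 1256, 1440.2 and 1307 FPKM without (log2 change 0.92, limma adjusted p = 0.000204). In root it stood at 134, 65.5 and 95.1 FPKM with PSI-475, against 232, 239 and 235 FPKM without (log2 change -1.31, limma adjusted p = 0.000545). Whether Solyc04g071600 or Solyc04g071615 is an ASR gene is not given in the sources used here, so the ASR results above hold for the 2 listed loci and not for the family.

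The patterns most like that of TAS14 over the 12 libraries were those of Solyc01g104320 and Solyc06g072420, with Pearson correlations of 0.996 and 0.996 on log2(FPKM + 1) among 19324 loci. These correlations follow mainly the contrast of leaf and root, and the points share groups. Solyc01g104320 stood at 14.4 to 17.2 FPKM in treated leaf and 6.38 to 6.79 FPKM in untreated leaf, with 0 to 0.191 FPKM in treated root and 0.280 to 0.368 FPKM in untreated root. Solyc06g072420 stood at 24.5 to 25.6 FPKM in treated leaf and 10.5 to 12.6 FPKM in untreated leaf. Its root values were 0.043 to 0.430 FPKM with treatment and 0.0862 to 0.360 FPKM without. Both loci were thus near 0 FPKM in root, where TAS14 stood at 119 to 166 FPKM. Among the members the closest to TAS14 was Solyc02g084840, at 0.925, behind 2415 other loci. LE25 was at 0.760.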

How the data were processed

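The deposited table holds FPKM made by the authors for 12 libraries, and its columns were mapped to samples by name. The authors used fastp, featureCounts and DESeq2, per the submitters' processing notes, which give no versions. No aligner, build or annotation, and no rule for strand or shared reads, is given in the sources used here. Library totals, locus lengths and whole fragments were recovered from the digits of the FPKM values, within a tolerance of 0.001. They served for depth, Poisson intervals (which cover counting error only) and the limma-voom alternative. That tool was planned, but its median-of-ratios library sizes were chosen after the data were seen, in place of another normalization whose values are not reported. A limma-voom fit on unscaled library totals was added then too. Loci whose mean reached 1 FPKM were tested on log2(FPKM + 1), with a trended variance prior, in limma 3.58.1 (R 4.3.3). Tests were 2-sided, p-values were adjusted by Benjamini-Hochberg over all loci tested, and 0.05 was the threshold. Each tissue had its own fit on 6 libraries, and the interaction and tissue comparisons on all 12. Fold differences are ratios of mean FPKM. The fit was also run on simulated fragments, but the outcome is not reported here and no result rests on it. Replicate pairs differed by more than sampling noise, with a chi-square over its degrees of freedom of 2.21 to 17.4. All 7 members found were named, with the 2 loci most like TAS14. Neighbour windows held identifiers numbered within 50 of Solyc01g109920, Solyc04g082200 or LE25, or between Solyc02g084800 and Solyc02g084900 for TAS14 and Solyc04g071500 and Solyc04g071700 for the ASR loci. No list of other pathway genes and no tissue markers could be applied, because identifiers carry no names. The members and lists were chosen with earlier results of these data known. Alternatives varied the pseudocount, filter, scaling, replicate block and the libraries fitted, each replicate being left out in turn. Figures used matplotlib 3.10.9.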

Additional observations from a re-analysis of the deposited data

Results flagged for a closer look

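The effect of PSI-475 differed between root and leaf in the limma interaction test for 5 members. The difference (root change minus leaf change, log2) was -2.96 for Solyc04g082200, whose level was 6.12-fold lower in treated than in untreated root and 1.26-fold higher in treated than in untreated leaf. The leaf part of this did not pass its own test as deposited, and passed under only some of the other settings given above. For Solyc04g071590 the difference was -1.99, for Solyc02g084840 -1.23 and for Solyc01g109920 -1.08. The value of Solyc02g084840 rests on a root change with few fragments, for which no p is given above. TAS14, at -0.84, rose in leaf and did not pass in root as deposited.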

How the results depend on the processing

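Over all 5 comparisons the 7 members gave 663 values under alternative settings, of which 634 kept the direction and the side of the threshold, 13 newly passed it in the same direction and 16 changed sign, 1 of which then passed the threshold (Solyc04g071610 in root in limma-voom). None of the called values lost its call. The sign changes concerned Solyc04g071610 and Solyc01g109920, whose values as reported had not passed. For Solyc04g071610 the leaf change ran from -0.039 to 0.284 with each replicate left out, and the root change was -0.168 with median-of-ratios scaling and -0.194 in limma-voom. Its interaction was 0.147 with quantile normalization, 0.041 rescaled to TPM, and from -0.163 to 0.16 with each replicate left out. For untreated root against untreated leaf it gave -0.103 with quantile normalization and from -0.032 to 0.291 with each replicate left out, where the highest value passed. For treated root against treated leaf it gave -0.04 with median-of-ratios scaling and -0.039 in limma-voom, and Solyc01g109920 gave -0.01 and -0.017. The cause was not tested. No pairing by replicate number was seen: same-numbered treated and untreated libraries correlated in their deviations at -0.237 to 0.114 in leaf and -0.00936 to 0.0426 in root. Differently numbered leaf libraries correlated at -0.25 to 0.319. With 3 libraries per group these values cannot show whether the samples were paired. With the replicate block 2 members were called higher in leaf, and 1 higher and 4 lower in root, as without it, and TAS14 in leaf had a limma adjusted p of 0.00652. The filter at 5 FPKM removed Solyc01g109920 from the leaf test and Solyc02g084840 from the root test. Depth limits Solyc02g084840 in treated root, with 7 to 17 fragments per library.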
